A study of Sus scrofa with 42 samples.

Results

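The first cleavage of parthenogenetic (PA) pig embryos was followed by comparing PA 2-cell with PA 1-cell embryos. The comparison takes every cell labelled with either stage, which gives 9 of the 42 cells of the series: 3 whole 1-cell embryos and 6 blastomeres, 2 from each of 3 2-cell embryos. A blastomere is 1 cell of a cleaving embryo, and the embryo was the unit of every test, so 3 embryos were compared with 3. Both groups came from oocytes of slaughterhouse gilt ovaries that were matured in vitro. They were activated by an electric pulse without sperm, held in 6-dimethylaminopurine and cytochalasin B, and cultured in PZM-3 medium. PA 1-cell embryos were collected 19 h and PA 2-cell embryos 27 h after the pulse. No genotype, breed or parent animal is given, so whether embryos of a group came from different animals is not known. The same 2 stages of embryos made by in vitro fertilization (IVF), also 3 embryos each, are set beside the PA step. The gene tests were fitted with all 8 groups of method and stage (20 embryos), and their gene filter counted all 42 cells. The p-values of the gene tests thus measure the spread between embryos of all groups. Those of the permutation tests rest on the embryos compared only.

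A PA embryo carries maternal chromosomes only. Cytochalasin B keeps the second polar body in the egg, so such embryos are diploid, and 6-dimethylaminopurine, a kinase inhibitor, helps the egg to leave metaphase. Early cleavage runs on mRNAs that the oocyte stored. These mRNAs are deadenylated and degraded in steps, and in pig embryos the main activation of embryonic transcription is usually placed at the 4-cell stage, after the cleavage studied here. Many stored mRNAs carry a cytoplasmic polyadenylation element in the 3′UTR, which CPEB proteins bind and through which tail length and translation are controlled.

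Values are FPKM, fragments per kilobase of gene scaled to the mapped fragments of the cell, as the authors deposited them for 15351 genes. The 9 cells held between 11229477 and 15874361 reads on genes, recovered from the steps of the FPKM values. The cells carried RNA of the oocyte lineage, since 13 of 14 oocyte markers in the table were above 0 (FIGLA was at 0), with a summed FPKM of 1481 to 1713 in 1-cell and 1480 to 1988 in the blastomeres. Markers of cumulus and granulosa cells, which surround the oocyte, summed to 9.24 to 16.8 FPKM in 1-cell embryos and 1.93 to 26.9 in blastomeres, with 8 of 11 above 0 and TNFAIP6, LHCGR and INHBA at 0. Leukocyte and fibroblast markers summed to at most 1.30 FPKM, and the 1 sperm marker in the table was at 0 in 1-cell embryos and at most 0.241 FPKM in blastomeres. A pair of the blastomeres stands apart. PA 2-cell-1-2 nearly repeats a blastomere labelled PA 4-cell-1-4 (Pearson's r of 0.9985 across genes), and PA 2-cell-2-1 nearly repeats PA 4-cell-2-1 (0.9988), while the next highest of 859 pairs of cells reached 0.908. The cells labelled PA 4-cell-1-4 and 2-1 had 3702 and 3836 genes with at least 1 FPKM, and the 2-cell blastomeres they repeat 3662 and 3813. The other PA 2-cell blastomeres had 2900 to 3430 and the other 7 PA 4-cell cells 1124 to 1992. Counts within a near-repeated pair are alike because the cells nearly repeat each other, and which label is right was not tested. The labels were kept, and main results are also given without the near-repeated cells.

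Fewer genes were detected in a 2-cell blastomere than in a 1-cell embryo. The 1-cell embryos held 8301, 7932 and 8342 genes with FPKM > 0, and the 6 blastomeres between 6104 and 6918. The groups do not overlap, with means of 8192 ± 226 and 6562 ± 318 (SD, n = 3 embryos each). The exact permutation test over embryos gave p = 0.1 (two-sided), the smallest value that 3 against 3 allows, so this design cannot reach 0.05. Depth differs little between the groups, and after thinning every cell to 11000000 reads the means were 8000 and 6352. Genes with at least 1 FPKM numbered 4874 ± 153 and 3334 ± 313. Taking both blastomeres of an embryo together raised the 2-cell number to 7802, 8127 and 7423, a mean of 7784 ± 352, so that the difference from the 1-cell embryos shrank to -407.7 genes. A blastomere holds only part of the egg's cytoplasm, and FPKM are relative within a cell, so fewer molecules per blastomere and less RNA per embryo cannot be told apart here.

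**Figure D1:**
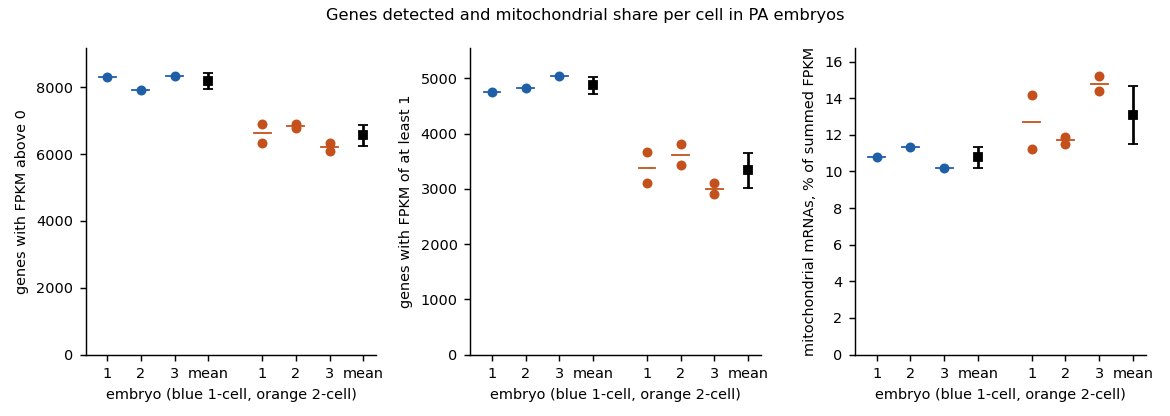
Number of genes with FPKM above 0 (left), number with at least 1 FPKM (middle) and share of summed FPKM held by the 13 mitochondrial mRNAs (right) in each PA cell, with embryos 1 to 3 of each stage along the x axis, a short line at the embryo mean, and a black square with bars for the mean ± SD of 3 embryos. All 6 blastomeres (orange) lie below all 3 1-cell embryos (blue) for both gene counts, and between 11.2% and 15.2% for the mitochondrial share, where blastomere 1-1 lies within the 1-cell range.

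The genes that went undetected were mostly low ones. Of 6306 genes above 0 in all 3 1-cell embryos, 3927 were above 0 in all 6 blastomeres and 106 in none. The 106 had a median of 0.530 FPKM at the 1-cell stage. Only 5 of them had at least 1 FPKM in every 1-cell embryo, namely TMEM200C, TPRA1, RDH11 (a retinol dehydrogenase), POP5 (a subunit of RNase P and RNase MRP) and the pseudogene ENSSSCG00000031929. TMEM200C and TPRA1 are described below, and the others are named for this count, after their values were seen. At higher levels detection was nearly complete, since 1051 of the 1069 genes with at least 10 FPKM in all 3 1-cell embryos were above 0 in all 6 blastomeres. In the other direction, 38 genes at 0 in all 3 1-cell embryos were above 0 in all 3 2-cell embryos, with a median of 0.264 FPKM. Of these, 9 had a mean of at least 1 FPKM, and the highest was RAB3D, a small GTPase of secretory vesicles, at 6.52 FPKM. The 1 gene of them that was above 0 in all 6 blastomeres, TGS1 (which trimethylates the cap of small nuclear RNAs), had 8.77 FPKM in blastomere 2-1, one of the near-repeats, and at most 0.0393 in the others.

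Blastomeres also differed far more from each other than 1-cell embryos did. Among genes with a mean of 5 to 20 FPKM in the pair compared, 9.42% to 9.98% were over 10-fold apart between 2 PA 1-cell embryos. Between sister blastomeres of 1 embryo it was 38.2% to 53.6%, and between blastomeres of different 2-cell embryos 38.5% to 54.1%. At 20 to 100 FPKM the shares were 1.90% to 2.57%, 13.6% to 27.1% and 11.4% to 25.9%, and above 100 FPKM they were 0% to 0.606%, 1.86% to 5.59% and 1.65% to 8.62%. At each level every pair of blastomeres lay above every pair of 1-cell embryos, and the ranges of sisters and of blastomeres of different embryos overlapped. Pearson's r of log2(FPKM + 1) across genes showed the same order. It was 0.800 to 0.806 for the 3 pairs of 1-cell embryos, 0.672, 0.655 and 0.609 for sisters of embryos 1, 2 and 3, and 0.618 to 0.660 for the 12 pairs from different 2-cell embryos. Embryo means over both blastomeres gave 0.7015 to 0.7235 for the 3 pairs of 2-cell embryos. The sister pairs of embryos 1 and 2 each include 1 near-repeated blastomere. A blastomere holds only part of an embryo, and whether this bears on the difference was not tested. These values are descriptions of pairs that share cells or embryos, and genes are not independent replicates.

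**Figure D2:**
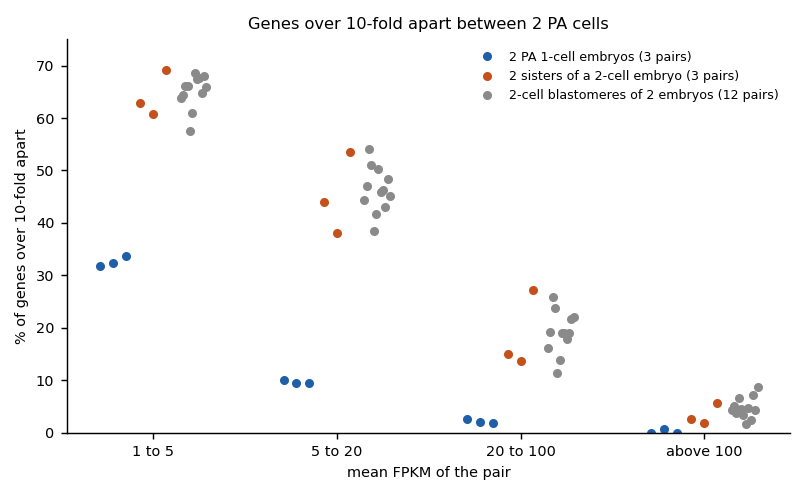
Share of genes over 10-fold apart between 2 PA cells (y axis, %) against the mean FPKM of the pair (x axis, 4 ranges). Each point is a pair, blue for 2 different 1-cell embryos, orange for the sisters of a 2-cell embryo and grey for blastomeres of different 2-cell embryos, and the blue points lie below all others in each range.

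The 1- to 2-cell step was then tested gene by gene with limma on log2(FPKM + 1) of embryo means, over 8116 genes with at least 1 FPKM in at least 3 cells. A gene was called at a Benjamini-Hochberg adjusted p below 0.05 and a fold of at least 2. In all, 8 genes fell, which is 0.0986% of the genes tested, and 0 (0%) rose. At an unadjusted p below 0.05, 310 genes (3.82%) were lower and 84 (1.03%) higher at the 2-cell stage, so nearly all of them were not called after adjustment. Over all genes 4612 (56.8%) had a log2 difference below 0 and 3350 (41.3%) above 0. The median difference was -0.09 and the median SE 0.82. Scaling each cell by its median ratio instead turned the split of 310 lower and 84 higher into 105 and 83 (78.7% and 55.9% lower), with the median difference at 0.01. Without PA 2-cell-1-2 and 2-1 the test called 9 genes, all lower, and all 8 remained among them, while the unadjusted split was 516 and 74. The SE of the called genes (0.31 to 0.56) lay below that median, and the fit shares its spread with groups in which most of these genes are near 0. The calls rest on every 2-cell embryo: leaving out PA 2-cell embryo 2 left 0 called, embryo 3 left 1 and embryo 1 gave 5 (3 lower, 2 higher), and leaving out PA 1-cell embryo 2 gave 13. Fitting only the groups compared, with their own spread, called 0 genes, with 346 lower and 121 higher at an unadjusted p below 0.05.

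**Figure D3:**
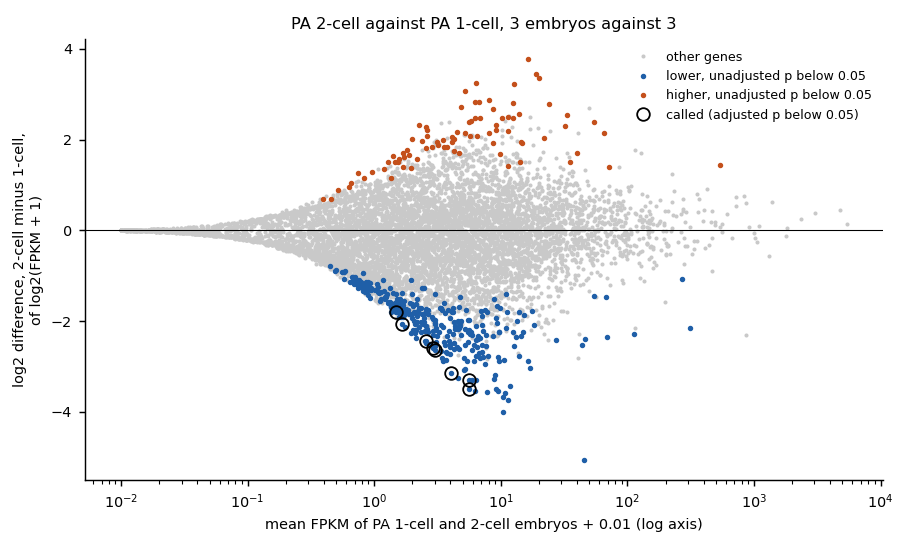
Difference of log2(FPKM + 1), PA 2-cell minus 1-cell, for each of the 8116 genes tested (y axis) against the mean FPKM of both stages with 0.01 added (x axis, log scale). Blue and orange points are genes lower and higher at an unadjusted p below 0.05, and black rings mark the 8 called genes, which lie along the lower edge between about 1 and 6 FPKM.

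The clearest fall was that of SNRPA (ENSSSCG00000002998, chr6:48971868-48982369, + strand), which encodes the A protein of the U1 snRNP, the particle that recognizes 5′ splice sites. It measured 10.3, 15.1 and 7.89 FPKM in the 3 1-cell embryos, and the 2-cell embryos averaged 0, 0 and 0.137. Of the 6 blastomeres 5 were at 0, and the other held 8 reads, against 205 to 480 in the 1-cell embryos. Its log2 difference was -3.49 ± 0.49 (SE), with an adjusted p of 0.00681 by limma.

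Both TMEM200C and TPRA1 were listed at 0 in all 6 blastomeres. TMEM200C (ENSSSCG00000039627, chr6:101214902-101216782, + strand), a membrane protein gene, had 5.24, 8.29 and 10.8 FPKM at the 1-cell stage and a log2 difference of -3.14 ± 0.48 (limma, adjusted p = 0.00817). TPRA1 (ENSSSCG00000011623, chr13:72655928-72666989, + strand) encodes a membrane protein with the topology of a G protein-coupled receptor. It had 4.18, 3.95 and 1.81 FPKM and a log2 difference of -2.06 ± 0.31 (limma, adjusted p = 0.00817). Against groups at 0 these differences depend on the 1 that was added to each value, and no fold is given.

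TULP3 (ENSSSCG00000000737, chr5:67201685-67238330, − strand) carries membrane receptors into cilia. The 1-cell embryos had 2.60, 7.86 and 4.65 FPKM and the 2-cell embryos 0, 0.0234 and 0.0911 (log2 difference -2.44 ± 0.41, limma, adjusted p = 0.0196). TMEM252 (ENSSSCG00000037125, chr1:221840630-221848591, − strand), a membrane protein gene, had 13.9, 17.1 and 2.55 against 0.0111, 0.00322 and 0.00730 FPKM (-3.29 ± 0.56, limma, adjusted p = 0.0196). In these genes no blastomere came near the lowest 1-cell embryo.

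The remaining 3 calls lie close to the threshold, each with an adjusted p of 0.0465 by limma. PRXL2A (ENSSSCG00000010340, chr14:82249269-82273169, + strand), a peroxiredoxin-like redox protein, had 3.35, 5.72 and 8.16 FPKM against 0.111, 0.106 and 0.0112. RIMKLA (ENSSSCG00000003968, chr6:168919762-168950094, − strand), a ligase that joins glutamate to N-acetylaspartate, had 1.73, 5.56 and 1.53 against 0, 0.0236 and 0.0311. ENSSSCG00000009595 (chr14:3166217-3199480, + strand), given without a symbol, had 6.42, 2.23 and 9.26 against 0.0292, 0 and 0. The log2 differences were -2.58 ± 0.49, -1.81 ± 0.34 and -2.63 ± 0.50. Just outside the threshold lay PKIG, an inhibitor of protein kinase A (limma, adjusted p = 0.0725), and CCNDBP1 (0.0981), both lower, and DGKG, a diacylglycerol kinase (0.145), higher. CCNDBP1 and DGKG are named after their values were seen.

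For all 8 called genes every blastomere lay below the lowest 1-cell embryo. The genes were called from these same values, so this describes the calls and adds no support. Each had at least 67 reads in every 1-cell embryo and at most 31 in any blastomere. Non-overlap of embryo means was common, in the lower direction in 687 genes (8.46%) and in the higher direction in 278 (3.43%). The share of all genes with every blastomere below was not counted. None of the 8 overlaps another annotated gene.

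**Figure D4:**
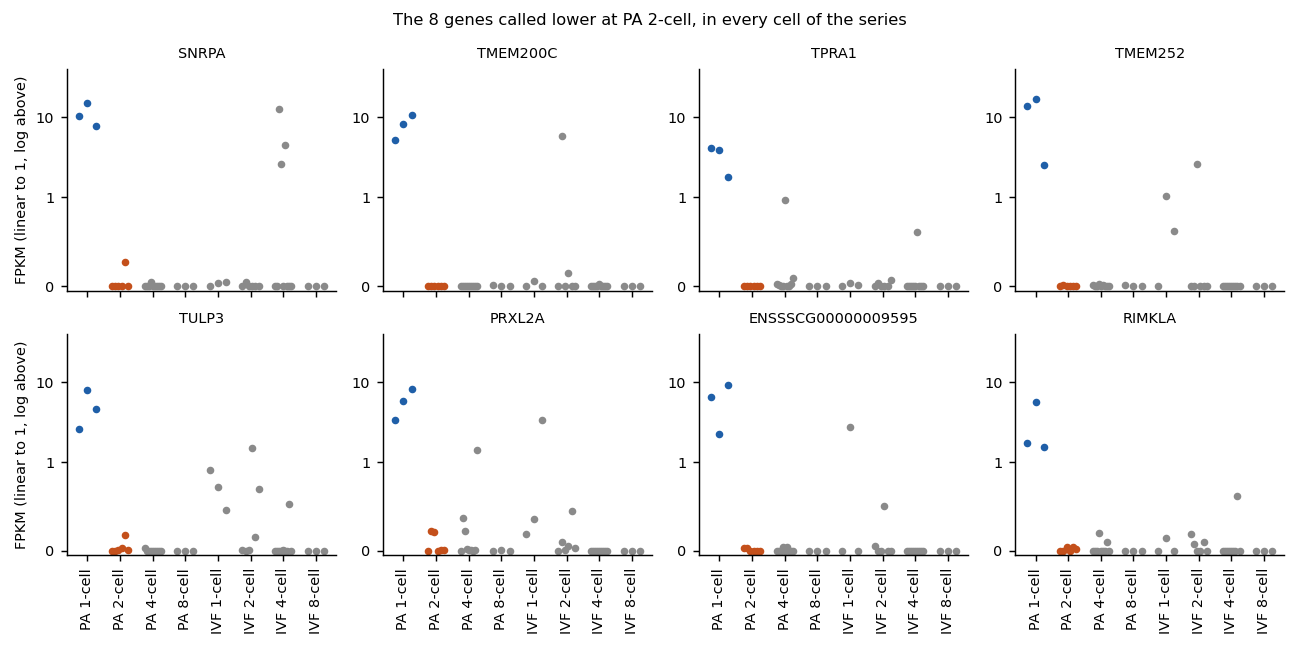
FPKM of the 8 called genes in each of the 42 cells of the series (y axis linear up to 1 and logarithmic above), by group along the x axis, with PA 1-cell embryos in blue, PA 2-cell blastomeres in orange and all other cells in grey. For each gene the 3 blue points lie above all orange points, and at most 1 grey point lies above the lowest blue one.

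The filter bears on where the called genes were high. Of the 8, 7 (87.5%) passed the filter of 1 FPKM in 3 cells only through the PA 1-cell embryos, SNRPA being the exception, against 249 (3.07%) of all genes tested, so low values elsewhere are in part given by how they were selected. Of the 33 other cells of the series none exceeded the lowest PA 1-cell embryo in TULP3, RIMKLA and TPRA1, and 1 cell did so in each of the other 5 genes. In IVF 1-cell embryos SNRPA had 0, 0.0398 and 0.0428 FPKM, TMEM200C 0, 0.0543 and 0, and TPRA1 0, 0.0363 and 0.0195. PRXL2A reached 3.36 FPKM in 1 IVF 1-cell embryo, within its range in PA 1-cell embryos. The means of the 8 genes over the IVF 1-cell embryos lay between 0.0181 FPKM (TMEM200C) and 1.31 (PRXL2A).

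Sequences of the 3′UTR bear on a step that is known for the control of stored mRNAs, so the cytoplasmic polyadenylation element was looked for as TTTTAT or TTTTAAT on the transcribed strand of RefSeq transcripts (Sscrofa11.1). Of the 8 called genes 5 had a matched transcript, and 2 of these held the element. The 30 bases around 1 element of each are shown with the element in capitals, from chr6:168917733-168917762 for RIMKLA and chr1:221843451-221843480 for TMEM252, both read on the − strand.
RIMKLA: acgtctcttaccTTTTATgtaggttaagac
TMEM252: taagtatgtgtaTTTTATttctatgtggaa
The RefSeq 3′UTR of RIMKLA, of 3038 bases, held 3 elements and that of TMEM252, of 1073 bases, held 1. The TMEM252 element lies 484 bases before the end of the RefSeq transcript, while the deposited gene runs on to position 221840630. The count of 1 therefore covers the RefSeq 3′UTR only. The RIMKLA window lies beyond the end of the gene in the deposited table, whose model is shorter than the RefSeq transcript.

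These elements are common in all genes. Among the 6599 tested genes with a matched transcript 69.5% held at least 1, against 66.8% of the 250 matched genes of the 310 lower at an unadjusted p below 0.05. The AU-rich pentamer ATTTA was found in 72.9% and 70.4%, and the Pumilio element TGTANATA in 30.2% and 26%. The median 3′UTR was 1093 bases long in all matched genes and 873.5 in the lower ones, with a GC content of the transcript of 46.8% and 47.4%. The same check on the higher and on the called genes is void, since 78.6% and 62.5% of them were matched, under the 80% that was asked for. A match is a description of these letters and shows no binding.

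Lower genes at an unadjusted p below 0.05 were most frequent at intermediate levels. They made up 6.46% of the 2662 genes with a mean of 1 to 5 FPKM and 4.43% of the 1895 genes at 5 to 20 FPKM. Of the 2685 genes with a mean of up to 1 FPKM, 44 (1.64%) were lower and 8 (0.298%) higher. Among the 710 genes at 20 to 100 FPKM the share was 0.986%, with 7 lower and 9 higher, and among the 164 above 100 FPKM it was 1.83%, with 3 lower and 1 higher. Over the autosomes and X the share of lower genes ranged from 0.617% on chromosome 18 to 5.87% on chromosome 7.

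Among genes that reached 5 FPKM and whose embryos did not overlap, the 12 lowest in p included 6 that were lower without being called. PKIG had 31.5, 5.94 and 13.9 FPKM in 1-cell and 0.580, 1.31 and 0 in 2-cell embryos. USP22, the deubiquitinase of the SAGA complex, had 13.3, 5.06 and 3.23 against 0.0693, 0.262 and 0.0175. USP13, another deubiquitinase, had 3.32, 15.6 and 16.5 against 0.0177, 0.0172 and 0.264. The adjusted p by limma was 0.218 for both deubiquitinases. SAE1, a subunit of the SUMO-activating enzyme, had 6.47, 14.4 and 9.40 against 0.00684, 1.02 and 0.0212 FPKM (limma, adjusted p = 0.219). ENSSSCG00000031224 averaged 18.1 ± 6.22 and 0.780 ± 1.12 FPKM. ENSSSCG00000038167, a gene model of 138 bases on the opposite strand of TSC22D1, had the widest difference of the genes tested (-5.05 ± 1.13), from 34.3, 160 and 69.2 FPKM to 0.243, 0.190 and 6.42. Blastomere 3-1 held 12.6 FPKM of it and the other 5 at most 0.486.

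No gene rose by the test, and the 12 higher genes that met the same rule had adjusted p-values by limma of 0.364 to 0.753. In 3 of them all 6 blastomeres lay above the highest 1-cell embryo. LDHA, the lactate dehydrogenase subunit of glycolytic cells, had 0.192, 4.26 and 2.88 FPKM in 1-cell and 66.1, 36.5 and 9.29 in 2-cell embryos, with 8.60 to 76.7 in the blastomeres. DDX43, a DEAD-box helicase of the germ line, had 5.98, 6.92 and 10.4 against 102, 52.3 and 21.6. MLLT3, a reader of acetylated histones in the super elongation complex, had 7.32, 12.3 and 8.30 against 52.0, 25.9 and 86.3. Their log2 differences were 3.35 ± 1.19, 2.54 ± 0.84 and 2.31 ± 0.77 (limma, adjusted p = 0.751 for each). MRPS24, a protein of the mitochondrial ribosome, was above in 5 of 6 blastomeres, with 0.986, 0.223 and 1.92 against 6.49, 13.5 and 25.3 FPKM (limma, adjusted p = 0.542). In embryo 1 the level of MRPS24 rests on the near-repeated blastomere 1-2 (12.5 FPKM), while its sister had 0.434, within the 1-cell range.

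The lowest p of these 12 belonged to MACROD2, which removes ADP-ribose from proteins, at 0.850, 0 and 0.357 against 9.66, 10.2 and 17.3 FPKM (limma, adjusted p = 0.364). Only 4 of its 6 blastomeres lay above the 1-cell embryos, since sisters differed. In embryo 1 its level rests on the near-repeated blastomere 1-2 (19.3 FPKM), while its sister had 0.0525, within the 1-cell range. SHMT2 (serine hydroxymethyltransferase) and AGK (acylglycerol kinase), nuclear genes of mitochondrial proteins, had means of 0.0411 ± 0.0531 against 10.4 ± 8.87 and of 0.961 ± 0.334 against 8.11 ± 3.16 FPKM. In SHMT2 3 of 6 blastomeres (1-1, 2-1 and 3-2) held 18.2, 4.47 and 39.7 FPKM, and their sisters at most 0.0396. Blastomere 2-1 is a near-repeat, and its sister had 0.0178 FPKM, within the 1-cell range. In AGK blastomere 3-2 held 0.0584 FPKM, below every 1-cell embryo. LZIC had 12, 12.5 and 64.1 against 91.7, 92.3 and 116, and TMEM230, a protein of vesicle traffic, 3.75 ± 5.40 against 33.9 ± 14. ENSSSCG00000036951 had 1.11 ± 0.983 against 5.93 ± 1.35. Blastomeres above every 1-cell embryo numbered 3 of 6 for ENSSSCG00000036951 and 4 of 6 for TMEM230 and ANKMY2. ANKMY2 and ACOT9 overlap genes on the opposite strand (BZW2 and SAT1), and in ACOT9 the mean of 12.4 ± 11.5 FPKM rests on blastomeres 2-1 (28.6) and 3-1 (45.6). Without the near-repeated cells the log2 difference of ACOT9 went from 2.82 to 1.53 and that of TMEM230 from 3.46 to 2.16. The 1-cell means of ANKMY2 and ACOT9 were 2.74 ± 1.19 and 0.0223 ± 0.00544 FPKM.

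Gene groups of the egg-to-embryo transition were described by counts and medians, to be read against 3.82% lower, 1.03% higher and a median of -0.09 over all genes. Of the genes named in them, ZP2, GDF9, BTG4, EXOSC9, IGF2BP3, ANAPC1, RFC1, RPA3, CDC45, PCNA, TAF6, HMGN5, SUPT16H, CENPT, PFKM, PLAGL1, MEST and PPP1R9A overlap an annotated gene on the opposite strand. The libraries' strandedness is not stated, so reads of such partners cannot be told apart. Across the 24 groups 1 member was called, SNRPA among the splicing factors, and 16 groups had a median below that of all genes.

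Among 26 tested oocyte factors, 3 were lower at an unadjusted p below 0.05 and 0 higher, with a median of -0.45. ZP4, of the zona pellucida, had 347, 109 and 79.0 FPKM against 108, 22.6 and 9.47, and ZP2, another zona protein, 36.9, 7.59 and 6.73 against 3.63, 1.38 and 1.17. UCHL1, an abundant deubiquitinase of oocytes, had 98.4, 92.8 and 101 against 54.6, 39.9 and 18.4, so its groups did not overlap. Adjusted p-values by limma were 0.751, 0.967 and 1. WEE2, the oocyte kinase that inhibits CDK1, was among the more abundant, at 191, 325 and 246 against 290, 492 and 582 FPKM. GDF9 and BMP15, growth factors the oocyte secretes, had 27.4 and 26.1, and 141 and 166 FPKM at the 1- and 2-cell stage.

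The machinery of mRNA deadenylation and decay had 61 tested members, of which 1 was lower (LSM6, of the ring that binds shortened tails, at 1.49 ± 0.664 against 0.0646 ± 0.0720 FPKM) and 0 higher, with a median of -0.19. Its most abundant member was BTG4, which joins the CCR4-NOT deadenylase to mRNAs of the egg. BTG4 measured 490, 522 and 602 FPKM in 1-cell and 617, 692 and 765 in 2-cell embryos, without overlap, and its log2 difference was 0.36 ± 0.44 (unadjusted p = 0.426). DCP1A, a decapping factor, and EXOSC9, of the exosome, averaged 11.9 and 8.81, and 3.61 and 0.314 FPKM. The 2-cell mean of DCP1A rests on blastomere 3-2 (50.3 FPKM). In 2-cell embryos 1 and 2 DCP1A had 0.921 and 0.0536 FPKM, against at least 9.32 in every 1-cell embryo. Its log2 difference was -1.76 ± 0.91.

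Of 40 factors of mRNA masking and polyadenylation, 2 were lower and 0 higher (median -0.12). PAPOLA, the poly(A) polymerase, had 10.4, 2.33 and 9.59 FPKM against 0.393, 2.83 and 0.139, with groups that overlap in embryo 2. CPEB3, a relative of the element-binding CPEB1, had 6.74, 1.58 and 3.63 against 0.143, 0.278 and 0.00489. CPEB1 itself had 10.9 and 11.8 FPKM at the 2 stages. IGF2BP3, which binds and shelters mRNAs, was the most abundant member at 891 ± 214 and 930 ± 85.6 FPKM.

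In meiotic exit and M-phase, 3 of 40 genes were lower and 1 higher (median -0.13). The lower ones included ANAPC1, the largest subunit of the anaphase-promoting complex (7.65 ± 2.85 against 0.943 ± 0.712 FPKM), and UBE2C, the ubiquitin-conjugating enzyme of that complex (8.31 ± 5.18 against 1.18 ± 1.16). TTK, the kinase that starts the spindle checkpoint, was the higher one, at 3.49, 31.2 and 34.8 against 43.3, 62.7 and 64.1 FPKM, where its low value in 1-cell embryo 1 widens the difference. BUB3, of the same checkpoint, had 515 ± 293 and 416 ± 139 FPKM.

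Of 48 DNA replication genes 6 were lower at an unadjusted p below 0.05 and 0 higher, with a median of -0.35. They were POLA1 and RFC3, RFC1, RPA2, RPA3 and CDC45, subunits of DNA polymerase alpha, the clamp loader, the single-strand binding protein and the helicase. POLA1 had 11.0, 10.7 and 7.94 FPKM in 1-cell and 1.5, 1.90 and 0.0454 in 2-cell embryos (log2 difference -2.46 ± 0.77, limma, adjusted p = 0.691). RFC3 averaged 10.3 ± 4.00 and 2.34 ± 4.03, since the near-repeated blastomere 2-1 reached 14 FPKM and the others at most 0.0243. RPA2 averaged 4.13 ± 2.99 and 0.541 ± 0.874. PCNA, the clamp itself, was among the most abundant nuclear mRNAs, at 1865 ± 103 and 1746 ± 366 FPKM.

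Embryonic transcription factors had a median above 0, at 0.23, with 1 of 27 lower and 0 higher at an unadjusted p below 0.05. SALL4 was the lower one, at 72.5, 64.5 and 92.7 against 15.8, 59.1 and 21.2 FPKM. TFAP2C, a factor of the early lineages, had 0.107, 0.0231 and 0.922 against 12, 2.98 and 0.250, so embryo 3 did not share the higher level. The value of embryo 1 rests on the near-repeated blastomere 1-2 (23.2 FPKM), since its sister had 0.698. YAP1 was the most abundant, at 479 ± 169 and 499 ± 40.7 FPKM. Among 44 subunits of RNA polymerase II and general factors, 1 was lower and 1 higher (median 0.02). TAF13, a TFIID subunit, had 13.5, 10.5 and 21.1 FPKM against 0.222, 0.821 and 0, while TAF6, of the same complex, had at most 0.00452 against 0.0153, 2.73 and 0.944.

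Of 58 splicing factors and hnRNPs, 2 were lower and 0 higher, with a median of -0.40. Beside SNRPA this was HNRNPD, which also binds AU-rich elements, at 11.4, 15.1 and 4.62 against 1.09, 0.0460 and 0.312 FPKM. The 78 ubiquitin-conjugating and ligating enzymes had 5 lower and 0 higher members (median -0.29). UBE2K averaged 2.42 ± 0.511 and 0.121 ± 0.143 FPKM and UBE2Q1 1.59 ± 1.15 and 0.00282 ± 0.00488, whereas the ubiquitin gene UBB had 157, 401 and 255 against 344, 140 and 307.

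No chromatin gene was called. Of 29 genes of DNA and H3K4 methylation 1 was lower and 0 higher (median -0.32). SETD1A, an H3K4 methyltransferase, had 1.16, 4.29 and 2.43 against 0.0515, 0.0567 and 0.0374 FPKM. DNMT1, the maintenance DNA methyltransferase, had 1568 ± 478 and 1042 ± 211 (unadjusted p = 0.151). Of 37 histones and histone chaperones 2 were lower and 1 higher (median -0.09). SLBP, which binds the stem-loop of histone mRNAs, had 14.5, 13.7 and 7.76 against 1.27, 3.83 and 3.75 FPKM, and SUPT16H, a subunit of FACT, 10.5 ± 1.63 against 3.49 ± 3.52. HMGN5, a nucleosome-binding protein, had 0.404, 3.08 and 0.985 against 26.1, 5.26 and 16.5. H1-8, the linker histone of oocytes, had 369 ± 133 and 301 ± 50.3.

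No member was called in the groups of cell structure and protein balance. Centrosome, spindle and cytokinesis genes had 3 lower and 2 higher of 95 (median -0.13), among them KIF23, a kinesin of the midbody, at 24.0 ± 9.31 against 5.89 ± 5.37 FPKM. CENPT and CENPM, kinetochore proteins, were the higher ones, each at no more than 0.152 FPKM in 1-cell embryos and high in some blastomeres only. CENPT was high only in the near-repeated blastomeres 1-2 and 2-1 (12.9 and 8.60 FPKM), and without them its log2 difference went from 1.76 to 0.00. Nuclear transport had 1 lower of 53 (RANBP17, median -0.16), the proteasome 1 of 37 (PSMG3, median -0.21), translation factors 1 lower and 1 higher of 47 (EIF2A and EIF4EBP1, median -0.10), heat shock and antioxidant genes 1 of 36 (HSPA9, median -0.23) and apoptosis genes 1 of 17 (XIAP, median -0.28). The 20 genes of calcium and kinase signalling of egg activation had 0 in either direction (median -0.21).

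Cytosolic ribosomal proteins had 0 lower and 0 higher of 60 members tested, with a median of 0. RPS3, the most abundant, had 68.9 ± 16.8 and 46.7 ± 33.3 FPKM. The nuclear subunits of the respiratory chain had 1 lower of 49 (SDHC, of complex II, at 2.94 ± 3.10 against 0.0195 ± 0.0169 FPKM, median -0.03). Glycolysis, pyruvate and TCA cycle genes had 1 lower and 2 higher of 32 (median 0.00). HK2, a hexokinase, had 6.85, 8.09 and 7.49 against 0.579, 1.93 and 2.94 FPKM, and the higher ones were LDHA and PFKM, the phosphofructokinase of muscle, whose 3.09 ± 3.57 FPKM rest on some blastomeres. No imprinted gene reached an unadjusted p of 0.05, among 8 tested that are expressed from the paternal copy (median 0.29) and 4 from the maternal copy (median -1.36). PLAGL1, PEG10 and MEST, of the paternal copy in other mammals, had 7.64 and 20.2, 2.70 and 8.26, and 1.91 and 6.14 FPKM at the 1- and 2-cell stage, with embryos that overlap in each. Of the maternal-copy genes all 4 had log2 differences below 0, beside 56.8% of all genes tested. So few genes cannot be told apart from that share, and 1 of them, IGF2R, was near 0 FPKM at both stages. UBE3A, a ubiquitin ligase, had 6, 5.10 and 4.03 against 0.00470, 1.63 and 3.31 FPKM, and PPP1R9A 2.54, 2.61 and 0.467 against 0.238, 0.00433 and 0.00167, both without overlap (unadjusted p = 0.112 and 0.0963). TFPI2 had 28.4 ± 12.9 and 20.4 ± 17.8 FPKM, and IGF2R was at 0.0304 and 0.

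**Figure D5:**
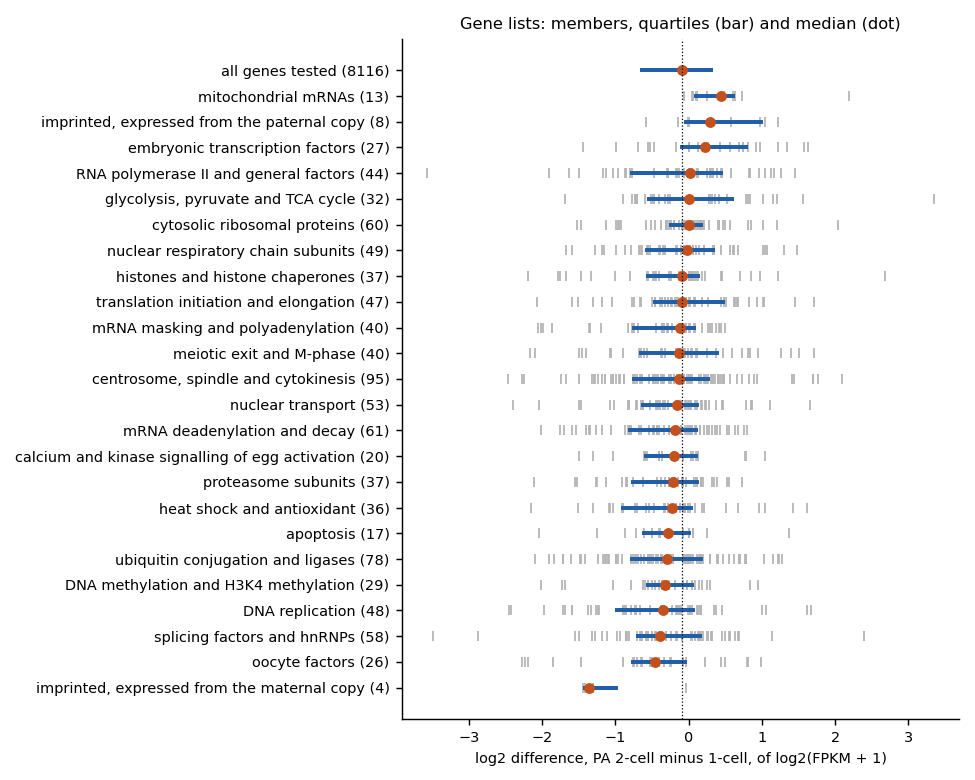
Log2 difference of log2(FPKM + 1), PA 2-cell minus 1-cell (x axis), for the members of each gene group (rows, with the number of genes tested). Grey ticks are genes, blue bars quartiles and orange dots medians, and the dotted line is the median of all genes tested, near -0.09.

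Mitochondrial mRNAs had higher mean levels in 2-cell embryos, with none called. The 13 mRNAs together measured 12400 ± 811 FPKM in 1-cell and 16059 ± 3216 in 2-cell embryos, and 12 of the 13 had a higher mean. Their share of summed FPKM was 10.8% ± 0.563 and 13.1% ± 1.58, which do not overlap between embryos (exact permutation test, p = 0.1, the smallest possible). Without the near-repeated cells the difference fell from 2.31 to 1.75 points and embryo 1, with 11.2%, lay within the 1-cell range. As a share of recovered reads they took 3.28% and 4.01%, where the embryos overlap (exact permutation p = 0.2). None of the 13 reached an unadjusted p of 0.05, and the lowest, 0.197, was that of COX2, a subunit of cytochrome c oxidase, at 536 ± 17.5 and 900 ± 178 FPKM. The highest was ATP6 and the lowest ATP8, subunits of ATP synthase whose genes overlap. ND1, of complex I, had 2.64, 2.56 and 4.67 FPKM in 1-cell embryos and 116 and 126 in the blastomeres of 2-cell embryo 3, but 23.4 or less in the other 4.

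The most abundant nuclear mRNAs were not called. None of the 10 with the highest mean had an unadjusted p below 0.05, and together they took 12.6% of summed FPKM at the 1-cell and 11.9% at the 2-cell stage. The first was ENSSSCG00000000296 at 5150 ± 1662 and 5706 ± 1927 FPKM, followed by PCNA and DNMT1. FAM151B had 1147 ± 230 and 952 ± 124, and CRK (ENSSSCG00000038989), an adaptor protein, 1087 ± 196 and 963 ± 180. ENSSSCG00000040056 came nearest to a difference, at 621 ± 137 and 1040 ± 163 (unadjusted p = 0.0677). SEPTIN11, a septin of the cell cortex, had 455, 460 and 832 against embryo means of 873, 511 and 1204, and TNPO1, an import receptor, 703 ± 64.1 and 643 ± 170 FPKM.

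The same step was measured in IVF embryos. Detected genes went from 8881 ± 934 to 7468 ± 261, a difference of -1413 beside -1630 in PA, and the mitochondrial share from 10.7% ± 5.89 to 22.3% ± 6.61, a difference of 11.7 points beside 2.31 in PA (exact permutation p = 0.1 for the IVF share). These differences between the methods were not tested. IVF 2-cell against IVF 1-cell embryos gave 0 called genes (0%), with 159 lower (1.96%) and 57 higher (0.702%) at an unadjusted p below 0.05 by limma. Of the 310 genes lower in PA, 198 (63.9%) were lower in IVF too, against 58.7% of all genes, and of the 84 higher in PA 34 (40.5%) were higher in IVF, against 40.2% of all genes. The steps share no embryos, and their log2 differences had a Pearson's r of 0.075 and a Spearman's rho of 0.072 across the 8116 genes, which share libraries and are not independent.

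The difference between the steps was tested itself, as the PA step minus the IVF step. It called 0 genes (0%), and 227 (2.8%) had an unadjusted p below 0.05 by limma. The lowest p-values belonged to TMEM200C (-3.81 ± 0.68, adjusted p = 0.173), SNRPA (-3.46, adjusted p = 0.309), TPRA1 (-2.06, adjusted p = 0.443) and MDM1 (5.28 ± 1.24, adjusted p = 0.848). The first 3 started from different levels, with IVF 1-cell values of at most 0.0543 FPKM. MDM1, a microtubule-binding protein of centrioles, went in opposite directions, from 5.25 ± 0.837 to 24.1 ± 11.4 FPKM in PA and from 39.8 ± 3.96 to 5.50 ± 6.78 in IVF embryos. LDHA averaged 19.2 and 5.18 FPKM at the IVF stages, and BTG4 730 and 941. A call in PA and none in IVF does not show that the steps differ, and for no gene did the test of that difference pass after adjustment.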

How the data were processed

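Whole 1-cell embryos and single blastomeres were sequenced after cDNA amplification that takes transcripts with or without polyA tails (Ansuper-seq, HiSeq X-Ten). Another procedure (Trizol, total RNA libraries of oocytes) stands in the labels' extraction protocol, but the paper's was assumed. The authors mapped reads with HISAT2 to Sscrofa11.1, assembled with StringTie, counted with HTSeq and deposited FPKM. Versions, strandedness and molecular identifiers are not given in the sources used here. All columns of the table were used (0 left out).

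Reads were recovered from the FPKM steps, whole within 0.002 for 99.85% of expressed genes, to describe depth only. Between cells, FPKM carry no further normalization. Symbols came from the table or from a list that matched 12108 IDs. FPKM were averaged over the blastomeres of each embryo. With 1 added, log2 values of 8116 genes (at least 1 FPKM in at least 3 of 42 cells) were fitted with limma 3.58.1 in R 4.3.3, with a mean-variance trend and all 8 groups (20 embryos) in 1 fit, since a shared spread is more stable with 3 embryos. Genes at a Benjamini-Hochberg adjusted p below 0.05 and a fold of at least 2 were called. Other measures used Python 3.11.15, numpy 2.4.6, pandas 2.3.3, scipy 1.17.1, pysam 0.24.0 and matplotlib 3.10.9. 3′UTRs were read from RefSeq Sscrofa11.1. Amplified reads are not independent molecules, so precision was taken from the spread over embryos and no counting interval is given. Count tests were not run on FPKM.

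Genes were named from every called gene, the 12 genes of lowest p in each direction with at least 5 FPKM and no overlap between embryos, up to 3 members of each group by p with its most abundant one, the 13 mitochondrial mRNAs (as a group, with the highest, lowest and most changed by name), the 10 most abundant nuclear genes, and the 4 genes with the lowest p for the difference between steps. Not every gene that the rule takes is printed, 1 gene is not reported here, and a few outside it are named as background to a group. The comparison, gene groups and tests were chosen with earlier results of these data known. Alternatives covered the pseudocount, filters, scaling, averaging, the fit, each embryo left out and the near-repeated cells left out.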

Additional observations from a re-analysis of the deposited data

Results flagged for a closer look

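Among 28 measures with 6 PA 2-cell blastomeres, 7 had a highest blastomere far from the others, by the ratio of its gap to the whole range against Dixon's critical value for 6 samples. That value is made for independent values from a normal distribution, which FPKM of sister blastomeres are not. The genes were also named by their values in these cells. The gaps are therefore descriptions, and no error rate is given for them. SNRPA was at 0.2746 FPKM in blastomere 3-1 and 0 in the other 5. TULP3 had 0.1736 FPKM in the same blastomere, with 0.03724 as the next value, and ENSSSCG00000038167 had 12.62 there, with 0.4864 as the next. Blastomere 3-2 had the highest MRPS24, at 40.65 FPKM against 14.75, and the highest USP13, at 0.5284 against 0.03448. DDX43 reached 143 FPKM in blastomere 1-1 against 61.86, and ENSSSCG00000031224 reached 4.103 in blastomere 2-2 against 0.4632.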

How the results depend on the processing

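The count of 8 genes called between PA 1- and 2-cell embryos moved with most choices. It was 3 with a pseudocount of 0.1 or with median-ratio scaling, 5 without a filter, 2 with at least 5 FPKM in 3 cells (of the 8, only 2 pass that filter), 17 with the mean of log2 values over blastomeres, 56 with blastomeres under a random embryo block, 2 without the trend, 4 with robust hyperparameters and 0 when only the groups compared were fitted. Leaving out an embryo gave 0 to 13, with 5 without any 1 of the IVF 2-cell embryos. Of the 8 genes themselves, 3 were still called with a pseudocount of 0.1 and with median-ratio scaling, 4 with a pseudocount of 5 and with robust hyperparameters, 5 without a filter, 2 with the stricter filter and without the trend, 0 with only the groups compared, and 0 to 7 when an embryo was left out. All 8 stayed lower wherever they were tested. SNRPA was called in 25 of 27 alternatives and ENSSSCG00000009595 in 8 of 25. The median log2 difference shifted by -0.20 with a pseudocount of 0.1, by -0.19 with mean log2 values and by -0.17 without the near-repeated cells. The cause of these moves was not tested.

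The difference between the steps gave 0 genes, but 5 without a filter, 2 with mean log2 values, 12 with the random block and 0 to 6 with an embryo left out (6 without PA 1-cell embryo 3). The IVF step gave 0, but 2 with a pseudocount of 0.1, 4 without a filter, 3 with mean log2 values, 17 with the random block and 0 to 5 with an embryo left out (5 without IVF 1-cell embryo 1). The alternatives of the IVF step, and leaving out both pairs of near-repeats (10 called, 9 lower), were chosen after seeing the data. Detected genes differed by -407.7 per embryo when either blastomere counted, against -1630, and the mitochondrial share by 0.7317 points of reads against 2.306 of FPKM. The number of gene groups with a median below that of all genes was 13 to 18 of 24 (15 of 23 with nuclear genes rescaled).

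Embryos of the stages share numbers in the labels. Deviations of same-numbered embryos correlated at -0.0224, 0.019 and 0.0186, and those of differently numbered embryos at -0.0354 to 0.0183. Even sister blastomeres overlapped in likeness with blastomeres of different embryos. These correlations therefore cannot decide whether the numbers pair the embryos. With the replicate block 5 genes were called, all among the 8.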

Other observations

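Some abundant mRNAs differed between 2-cell embryos while sister blastomeres were alike. Of 1553 genes with at least 20 FPKM in 1 of the 3 PA 2-cell embryos, 259 had sisters within 2-fold (on FPKM + 1) in all 3 embryos, and in 22 of these the embryos lay over 10-fold apart. These genes were chosen after their values were seen, and no test was run. ENSSSCG00000035520 (chrX:22068922-22069186, + strand) had 1201 and 1207 FPKM in the blastomeres of embryo 1, 957 and 1100 in those of embryo 2, and 4.65 and 5.39 in those of embryo 3, against 787, 1004 and 1114 in the 1-cell embryos. MINPP1, an inositol polyphosphate phosphatase, had 0.112 and 0.127 in embryo 1, 32.5 and 31.6 in embryo 2, and 33.3 and 35.5 in embryo 3. TMEM170B had 52.9 and 28.2, 38.6 and 55.6, and 0.0908 and 0.198. The small nucleolar RNA snoR38 had 306 and 291 FPKM in embryo 2 and at most 0.421 in the others. Embryo 2 and embryo 1 each hold 1 of the blastomeres that nearly repeat a cell labelled PA 4-cell.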
